A study of Mus musculus with 8 samples.

Results

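The genes described here are 10 that make and load MHC class I molecules in the mouse: the light chain B2m, the heavy chains H2-D1, H2-K1 and H2-T23, the peptide transporter subunits Tap1 and Tap2, the loading factor Tapbp, the immunoproteasome subunits Psmb8 and Psmb9, and the transactivator Nlrc5. They were picked by symbol for their roles in this pathway, with earlier results of these data known, from the 35583 genes of the deposited count table. All 10 passed the filter on low counts and were among the 13277 genes tested.

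The study measured gene expression by bulk RNA sequencing in microglia, the resident macrophages of the brain, from the hypothalamus. The mice were young and wild-type, and the cells were sorted. A dye-labelled plasma protein had been injected 20 hours before. Cells carrying the dye (plasma-positive, 4 libraries) were compared with cells without it (plasma-negative, 4 libraries), and both groups came from injected animals. Libraries were made with Smart-seq2, a full-length method for small amounts of RNA. The labels give no exact age, strain, pooling or sort markers, and do not say whether the libraries came from separate animals, so p-values here measure the spread between libraries, which may be partly technical.

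MHC class I molecules show peptides from proteins made inside a cell to CD8 T cells. The proteasome cuts those proteins into peptides, the TAP transporter carries the peptides into the endoplasmic reticulum, and tapasin (encoded by Tapbp) helps to fit them onto a heavy chain bound to B2m. Interferons raise many of these genes, exchange catalytic subunits of the constitutive proteasome for those of the immunoproteasome, and induce Nlrc5, which acts at class I promoters. Microglia in the healthy brain carry few class I molecules on their surface and raise them under inflammation.

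Plasma-positive microglia had more B2m and H2-D1 RNA than plasma-negative microglia. B2m was 1.48-fold and H2-D1 1.46-fold higher, and these were the only members of the 10 that passed the test (edgeR quasi-likelihood test, Benjamini-Hochberg adjusted p under 0.05 over all tested genes). H2-K1, Tapbp and Psmb8 were higher in every plasma-positive library than in any plasma-negative one but missed the threshold. H2-T23, Tap1, Tap2, Psmb9 and Nlrc5 had estimates below 0, none of them past it. The calls were not stable, since 0 to 1 members were called with 1 library left out. With a correction for exon length and GC content, H2-D1 fell to a log2 fold change of 0.34 and was not called (edgeR adjusted p = 0.231).

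By the edgeR test without that correction, 2 of 10 members were called higher and 0 lower. Of all tested genes 1.41% were called, 0.844% higher and 0.565% lower. The groups did not overlap for 5 of 10 members, all higher in plasma-positive cells. Over all tested genes 10.3% did not overlap, 5.68% with the plasma-positive libraries higher and 4.59% with them lower. At an unadjusted p under 0.05 there were 5 of 10 members, beside 13.8% of all tested genes. The median log2 fold change was 0.13 over the members and 0.0058 over all tested genes, and 5 members lay above 0 and 5 below. With a per-library correction for exon length and GC content the members' median turned to -0.04 (all tested genes -0.02), and on log2(RPKM + 1) it was 0.23 (all tested genes 0.11).

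Promoter sequences are shown for 5 members to set those of the light chain and heavy chains, which share control elements in textbook accounts of class I transcription, beside that of the transporter gene Tap1. RefSeq windows on GRCm38.p6 were matched for 8 of the 10 members and reached from 250 bases before to 50 bases after the start of transcription. The 250 bases before the start are printed 5′ to 3′ on the gene's own strand. They lie at chr2:122147437-122147686 (plus strand) for B2m, chr17:35262844-35263093 (plus) for H2-D1, chr17:34000348-34000597 (minus) for H2-K1, chr17:36032702-36032951 (minus) for H2-T23 and chr17:34187306-34187555 (plus) for Tap1. Capitals mark every match, on either strand, to an interferon-response core (TTTCNNTT), a kappaB-like motif (GGGA and CC with 4 bases of any kind between them), an X2-like motif (TGACG) or a Y box (CCAAT).
B2m: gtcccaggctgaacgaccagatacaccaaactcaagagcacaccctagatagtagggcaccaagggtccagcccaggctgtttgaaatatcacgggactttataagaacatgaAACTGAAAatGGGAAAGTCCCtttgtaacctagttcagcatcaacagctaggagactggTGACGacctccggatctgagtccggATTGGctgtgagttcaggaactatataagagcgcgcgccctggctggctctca
H2-D1: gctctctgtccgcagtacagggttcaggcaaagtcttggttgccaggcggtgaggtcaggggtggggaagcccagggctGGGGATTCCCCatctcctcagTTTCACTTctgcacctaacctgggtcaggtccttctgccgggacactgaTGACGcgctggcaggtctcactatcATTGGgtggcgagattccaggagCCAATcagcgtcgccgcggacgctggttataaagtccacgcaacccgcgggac
H2-K1: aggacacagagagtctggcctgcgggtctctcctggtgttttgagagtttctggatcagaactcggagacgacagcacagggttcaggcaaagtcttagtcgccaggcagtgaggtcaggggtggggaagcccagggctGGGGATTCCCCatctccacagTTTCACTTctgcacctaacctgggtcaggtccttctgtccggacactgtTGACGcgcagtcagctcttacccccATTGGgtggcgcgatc
H2-T23: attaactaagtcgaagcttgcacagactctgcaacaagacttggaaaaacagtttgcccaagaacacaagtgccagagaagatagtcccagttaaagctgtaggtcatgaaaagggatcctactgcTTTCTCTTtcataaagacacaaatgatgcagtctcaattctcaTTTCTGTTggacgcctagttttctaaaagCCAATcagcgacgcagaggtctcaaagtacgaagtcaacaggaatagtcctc
Tap1: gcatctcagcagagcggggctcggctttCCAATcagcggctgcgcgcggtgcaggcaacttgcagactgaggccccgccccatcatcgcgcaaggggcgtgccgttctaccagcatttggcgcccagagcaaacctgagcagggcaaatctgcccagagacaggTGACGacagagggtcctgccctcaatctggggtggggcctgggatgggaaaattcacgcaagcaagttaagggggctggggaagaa

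Over their whole windows, B2m, H2-D1 and H2-K1 each held all 4 motifs. Of 32544 distinct RefSeq windows of the same length, 94 (0.289%) held all 4. The motif letters were chosen after the members' windows had been read, so that share only describes the windows and is no measure of how unusual the members are. Each motif alone was common: 23.9% of windows held the interferon-response core, 20.8% the kappaB-like motif, 20.9% the X2-like motif and 37.4% the Y box. H2-T23 held the interferon-response core and the Y box, Tap1 and Psmb9 held the X2-like motif and the Y box, Tapbp held the Y box, and Psmb8 held none. The Tap1 and Psmb9 windows share 275 bases, since these genes are transcribed in opposite directions from a common stretch. The RefSeq start lies inside the deposited gene by 154 bases for H2-T23, 364 for H2-D1, 434 for Psmb9, 474 for Psmb8 and 3579 for Tapbp. These matches describe the letters of the windows and say nothing of which factor bound there.

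B2m, the light chain of every classical class I molecule, was the highest member in both groups. The gene (ENSMUSG00000060802) lies on chromosome 2 at 122147686 to 122153083 (mm10), and its exons shared no 50-base stretch with another gene. Counts scaled to library size (CPM, with TMM factors) were 2000.0, 2184, 1765 and 2198 in plasma-negative replicates 1 to 4 and 3276, 2981, 2463 and 3374 in plasma-positive replicates 1 to 4. The lowest plasma-positive library, replicate 3, lay above the highest plasma-negative one. Means were 2037 ± 203 and 3023 ± 409 CPM (SD, n = 4), a log2 fold change of 0.57 (SE 0.10, edgeR adjusted p = 0.0186). Leaving out 1 library at a time kept the log2 fold change between 0.51 and 0.66, but the adjusted p was above 0.05 without plasma-negative replicate 1 or 3 (0.0598 and 0.0601) and without plasma-positive replicate 1, 2 or 4 (0.0738, 0.0536 and 0.0591).

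H2-D1 encodes a classical heavy chain, the part of the molecule that holds the peptide. It lies on chromosome 17 at 35262730 to 35267499 (ENSMUSG00000073411). Its CPM values were 887, 679, 648 and 662 in plasma-negative and 1135, 998, 924 and 1137 in plasma-positive libraries. The groups did not overlap, and plasma-negative replicate 1 stood above the other 3 of its group. Means rose from 719 ± 112 to 1049 ± 106 CPM (SD, n = 4), with a log2 fold change of 0.54 (SE 0.11, edgeR adjusted p = 0.0376). The adjusted p stayed under 0.05 only without plasma-negative replicate 1 (0.0185) and was 0.0520 to 0.115 without each of the other 7 libraries, at log2 fold changes of 0.50 to 0.60. A per-library correction for exon length and GC content lowered the estimate to 0.34 (adjusted p = 0.231), and scaling by library totals without TMM factors gave 0.43 (adjusted p = 0.0930).

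H2-K1, the other classical heavy chain (ENSMUSG00000061232, chromosome 17, 33996017 to 34000347), had 633, 533, 480.4 and 580.4 CPM in plasma-negative and 718, 661, 637 and 708 CPM in plasma-positive libraries. The highest plasma-negative library, replicate 1, lay just below the lowest plasma-positive one, replicate 3, so the gap between the groups was smaller than the spread within either. Means were 557 ± 65.4 and 681 ± 38.4 CPM (SD, n = 4), a log2 fold change of 0.29 (SE 0.10) that did not pass the test (edgeR adjusted p = 0.188).

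H2-T23 encodes the non-classical heavy chain Qa-1, a ligand of receptors on NK and T cells (ENSMUSG00000067212, chromosome 17, 36029773 to 36032855). Its CPM values were 116, 141, 91.7 and 97.6 in plasma-negative and 97.4, 83.7, 84.1 and 104 in plasma-positive libraries. The groups overlapped. The log2 fold change was -0.28 (SE 0.17, edgeR adjusted p = 0.532), and -0.14 without plasma-negative replicate 2.

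Reads of the heavy chains can be hard to assign. Of the 50-base stretches in their exons, 12.8% in H2-D1, 9.63% in H2-K1 and 14.5% in H2-T23 occurred in another gene too. For H2-D1 the largest shares were with H2-Q1 (5.87%), H2-K1 (5.44%) and H2-Q7 (4.75%). How multi-mapping reads were counted is not given in the sources used here. The reference genome is that of 1 strain at this polymorphic locus, so the heavy chain values are uncertain.

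**Figure D1:**
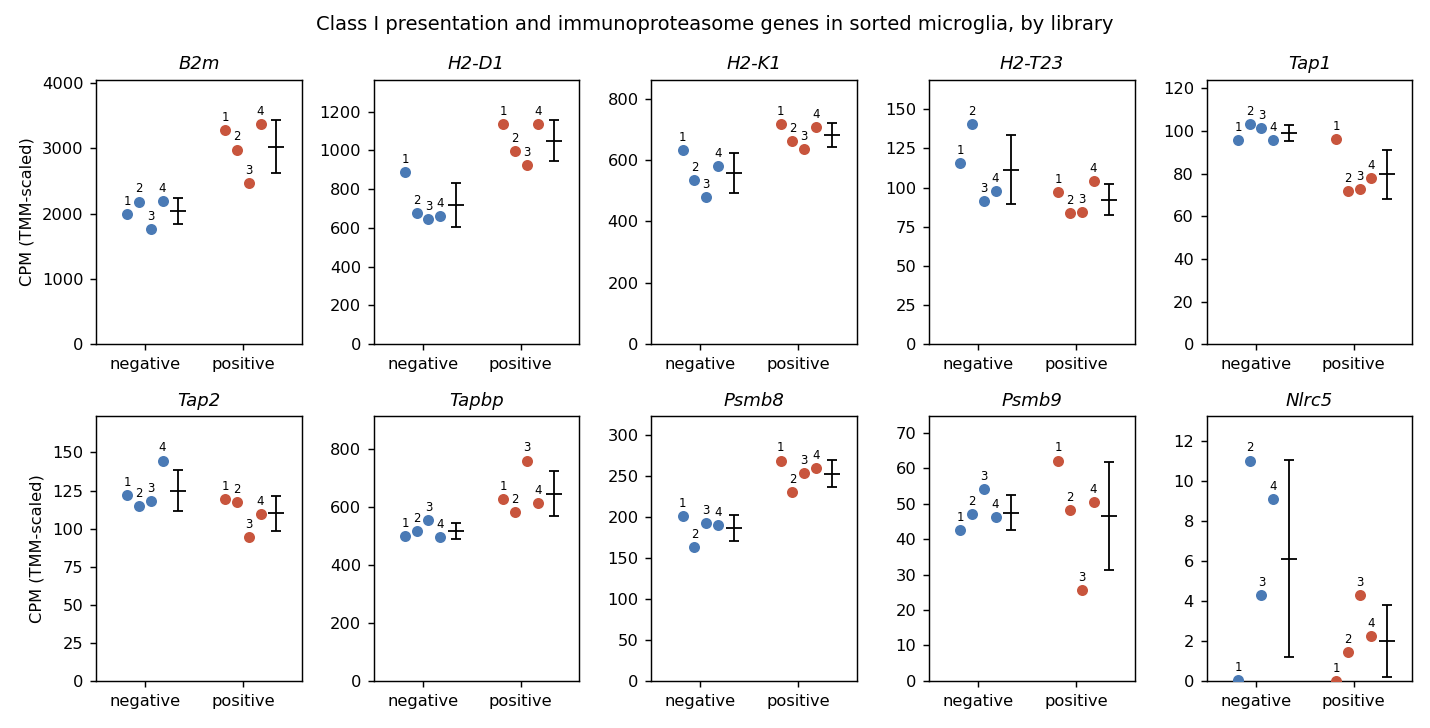
Normalised expression (TMM-scaled CPM, linear axes from 0) of each of the 10 genes in the 8 libraries. Points are libraries with their replicate numbers, and the cross and bar beside them are the mean and SD of 4. B2m, H2-D1, H2-K1, Tapbp and Psmb8 have every plasma-positive library above every plasma-negative one, and the other 5 genes overlap.

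Set against B2m within each library, H2-D1 did not separate the groups and H2-T23 did, with lower ratios in plasma-positive cells. The ratio of H2-D1 to B2m RPKM (reads for each kilobase of exon, relative to the size of the library) was 0.148, 0.104, 0.123 and 0.1005 in plasma-negative and 0.116, 0.112, 0.1251 and 0.112 in plasma-positive libraries. The groups overlapped (exact two-sided permutation p = 0.971, n = 4). For H2-K1 the ratio was 0.0927, 0.0715, 0.0797 and 0.0773 against 0.0641, 0.0649, 0.0756 and 0.0614, a log2 difference of -0.27 (exact permutation p = 0.0571, adjusted over 6 ratios 0.114).

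H2-T23 relative to B2m was 0.0172, 0.0192, 0.0155 and 0.0132 in plasma-negative and 0.00885, 0.00836, 0.0102 and 0.00917 in plasma-positive libraries. The groups did not overlap, and the log2 difference was -0.82. The exact two-sided permutation p was 0.0286, the smallest that the 70 assignments of 4 and 4 libraries allow. Adjusted over the 6 ratios it was 0.114, so none of the ratios passed a threshold of 0.05. With so small a design, 1 ratio that separated the groups completely could not pass alone after adjustment over 6.

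Of the 3 transport and loading genes among the members, Tapbp had the highest level per length. Tapbp (ENSMUSG00000024308, chromosome 17, 33915899 to 33929292) had 500.5, 516, 553 and 496 CPM in plasma-negative and 626, 583, 759 and 615 CPM in plasma-positive libraries. All plasma-positive libraries lay above all plasma-negative ones, and replicate 3 was the highest. Means were 516 ± 26.1 and 646 ± 78.0 CPM (SD, n = 4), a log2 fold change of 0.32 (SE 0.10, edgeR adjusted p = 0.139).

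Tap1 and Tap2 form the peptide transporter of the endoplasmic reticulum. Tap1 (ENSMUSG00000037321, chromosome 17, 34187553 to 34197225) had 95.9, 103, 101 and 95.9 CPM in plasma-negative and 96.1, 71.7, 72.7 and 78.0 CPM in plasma-positive libraries. Plasma-positive replicate 1 lay within the plasma-negative range and the other 3 below it. The log2 fold change was -0.32 (SE 0.15, edgeR adjusted p = 0.395). Tap2 (ENSMUSG00000024339, chromosome 17, 34203527 to 34216321) ranged from 115 to 145 CPM in plasma-negative and from 94.2 to 119 CPM in plasma-positive libraries, with a log2 fold change of -0.18 (SE 0.14, edgeR adjusted p = 0.651). Neither subunit gave a call in any of the 21 alternative fits of the processing.

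Neither immunoproteasome subunit passed the test. Psmb8, which replaces Psmb5 and carries the chymotrypsin-like activity (ENSMUSG00000024338, chromosome 17, 34197721 to 34201454), had 201, 164, 193 and 190.1 CPM in plasma-negative and 269, 230.1, 254 and 259.6 CPM in plasma-positive libraries. The groups did not overlap. Means were 187 ± 16.0 and 253 ± 16.6 CPM (SD, n = 4), a log2 fold change of 0.44 (SE 0.11, edgeR adjusted p = 0.0847).

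Psmb9, which replaces Psmb6 (ENSMUSG00000096727, chromosome 17, 34181987 to 34187764), had 42.5, 47.1, 54.2 and 46.1 CPM in plasma-negative and 62.2, 48.1, 25.7 and 50.4 CPM in plasma-positive libraries. Plasma-positive replicates 1 and 3 were the highest and the lowest of all 8. The log2 fold change was -0.03 (SE 0.26, edgeR adjusted p = 0.976) and turned to 0.17 without plasma-positive replicate 3 and to 0.04 without plasma-negative replicate 3. It was 0.037 on log2(RPKM + 1). The difference between the changes of Psmb8 and Psmb9 was not tested.

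Each inducible subunit was also set against the constitutive one that it replaces. Psmb8 to Psmb5 RPKM ratios were 1.74, 1.495, 1.35 and 1.05 in plasma-negative and 1.87, 1.58, 1.77 and 1.47 in plasma-positive libraries (exact permutation p = 0.171, adjusted 0.257, n = 4). Psmb9 to Psmb6 ratios were 0.212, 0.328, 0.297 and 0.307 against 0.262, 0.210, 0.0966 and 0.178 (exact permutation p = 0.0571, adjusted 0.114, n = 4). Psmb10 to Psmb7 ratios were 4.92, 3.37, 4.60 and 5.05 against 4.47, 5.10, 6.06 and 4.11 (exact permutation p = 0.486, adjusted 0.583, n = 4). All 3 ratios overlapped between groups.

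**Figure D2:**
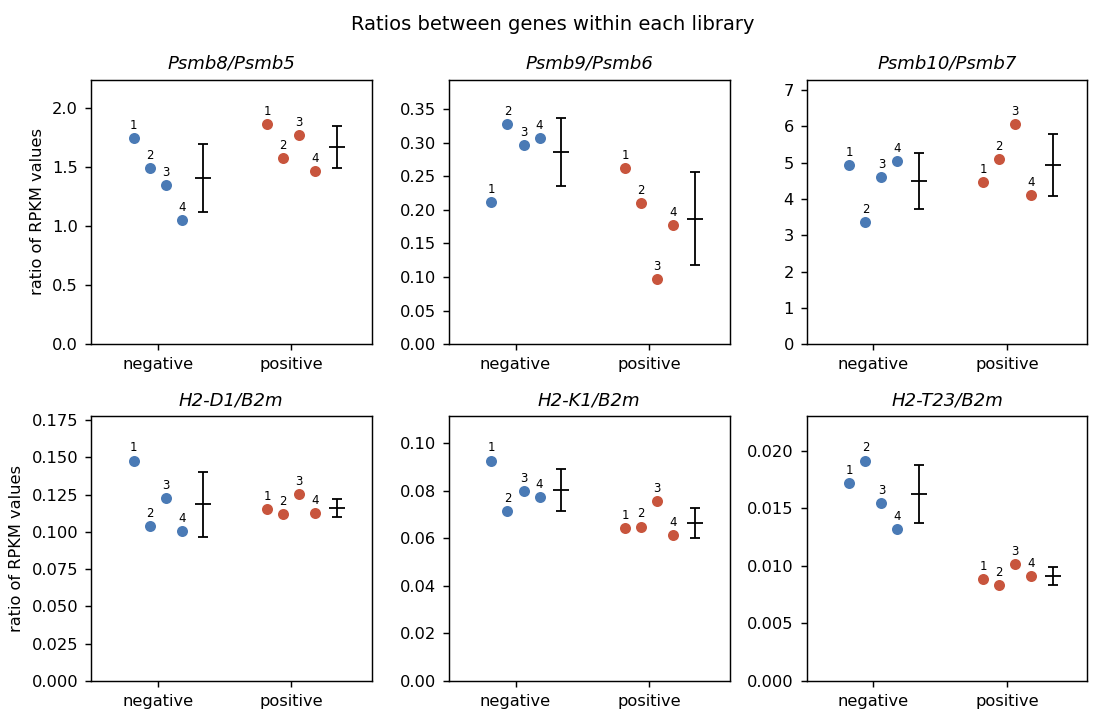
Ratios of RPKM values within each library (linear axes from 0), for 3 inducible over constitutive proteasome subunits and 3 heavy chains over B2m. Points are libraries with replicate numbers, and the cross and bar are the mean and SD of the linear ratios of 4. Only H2-T23 over B2m separates the groups, with plasma-positive libraries at 0.00836 to 0.0102 and plasma-negative ones at 0.0132 to 0.0192.

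Nlrc5, the transactivator of class I genes, was the lowest of the members. The gene (ENSMUSG00000074151) lies on chromosome 8 at 94434356 to 94527272. Its raw counts were 1, 175, 74 and 27 in plasma-negative and 0, 28, 85 and 20 in plasma-positive libraries. The 0 in plasma-positive replicate 1 allows up to 0.314 CPM, before TMM scaling, by counting error alone. Levels were 6.11 ± 4.93 and 1.99 ± 1.80 CPM (SD, n = 4). The fitted log2 fold change of -1.60 had an SE of 1.36 (edgeR adjusted p = 0.683). The counts did not follow library size, with 1 in the largest library and 27 in the smallest, and both groups overlapped.

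Levels of different genes were compared per length, as RPKM. The order of means was the same in both groups: B2m, H2-D1, H2-K1, Tapbp, Psmb8, H2-T23, Tap2, Tap1, Psmb9, Nlrc5. B2m stood at 1732 RPKM in plasma-negative and 2801 RPKM in plasma-positive libraries, H2-D1 at 204 and 324, H2-K1 at 139 and 185, and Tapbp at 104 and 142. Neighbours in this order whose libraries overlapped were H2-T23 and Tap2 in both groups, Psmb8 and H2-T23 in plasma-negative cells, and Tap1 and Psmb9 in plasma-positive cells. The level of Psmb8 was 40.5 and 59.7 RPKM, and that of Tap1 was 13.2 and 11.6 RPKM.

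Summed over the 10 genes, expression was 2295 ± 200 RPKM in plasma-negative and 3582 ± 377 RPKM in plasma-positive libraries (SD, n = 4). B2m made up 73.0% to 79.3% of that sum in each library. On the CPM scale the sums were 4405 ± 267 and 5982 ± 537 (SD, n = 4), and B2m made up 43.5% to 52.4% of them. RPKM differences between groups ran higher than CPM differences. The totals behind the deposited RPKM values are not given and were inferred from the counts, the RPKM values and the exon lengths. They exceeded the counted reads, and what the further reads are is not known. Counted reads were 68.9% to 74.6% of those totals in plasma-negative and 81.4% to 84.2% in plasma-positive libraries.

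The number of members called depended on the fit. Over all tested genes, 112 were called higher and 75 lower, against 64 and 163 with library totals only and 388 and 59 with limma on log2(RPKM + 1). On log2(RPKM + 1) with limma, B2m, H2-D1, H2-K1, Tapbp and Psmb8 passed (5 of 10, beside 3.37% of all tested genes), and the median of all tested genes moved to 0.11. DESeq2 called 4 of 10 members (B2m, H2-D1, Tapbp and Psmb8), beside 6.49% of the genes for which it gave an adjusted p. With the correction for exon length and GC content, B2m alone passed (1 of 10, beside 0.444%), at a log2 fold change of 0.57 and an adjusted p of 0.0418. Over 21 alternatives in all, the adjusted p lay between 6.18e-05 and 0.0738 for B2m and between 0.00054 and 0.231 for H2-D1.

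**Figure D3:**
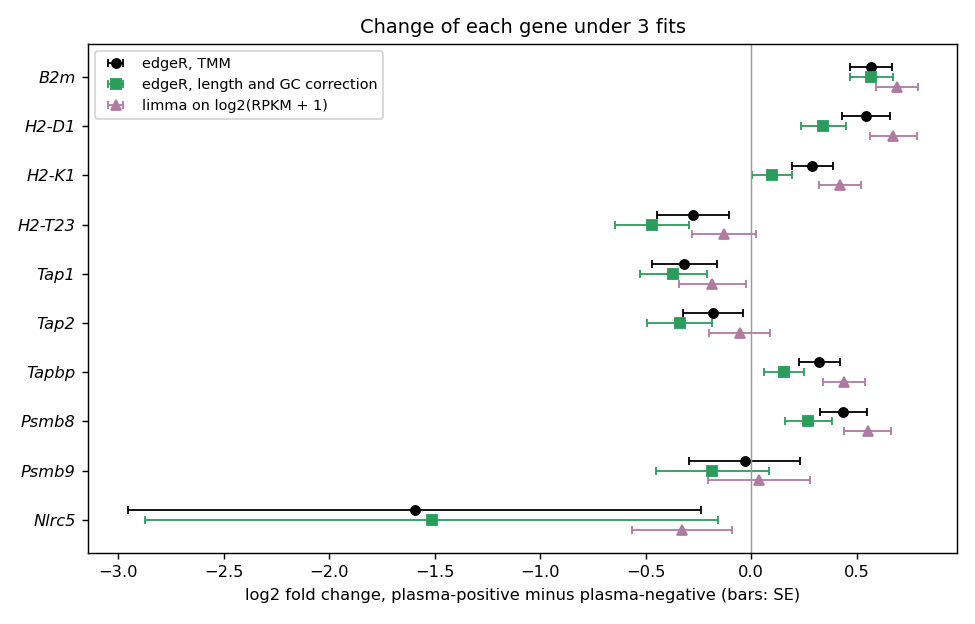
Log2 fold change of each gene, plasma-positive minus plasma-negative, with SE bars, under the edgeR fit with TMM factors, the same test with a length and GC correction, and limma on log2(RPKM + 1). B2m stays at 0.57 with the correction, H2-D1 drops from 0.54 to 0.34, and every estimate is higher on the RPKM scale than in the edgeR fit with TMM factors.

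Estimates moved with gene length across the transcriptome. Among 4976 other tested genes above 32 CPM, the log2 fold change fell with merged exon length (Spearman rho = -0.458 across genes, which are not independent replicates). Across the 10 members, which include Nlrc5 from below that level, rho was -0.782, as a description. B2m, with 860 bases of exon, is the shortest member, the median tested gene has 3975.5 bases, and Nlrc5 is the longest member with 8493 bases. With the correction for length and GC content, the log2 fold change was 0.10 for H2-K1 (edgeR adjusted p = 0.769), 0.16 for Tapbp (0.614) and 0.27 for Psmb8 (0.399). It was -0.47 for H2-T23, -0.37 for Tap1, -0.34 for Tap2, -0.18 for Psmb9 and -1.51 for Nlrc5, none of them called. The source of the trend was not tested.

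**Figure D4:**
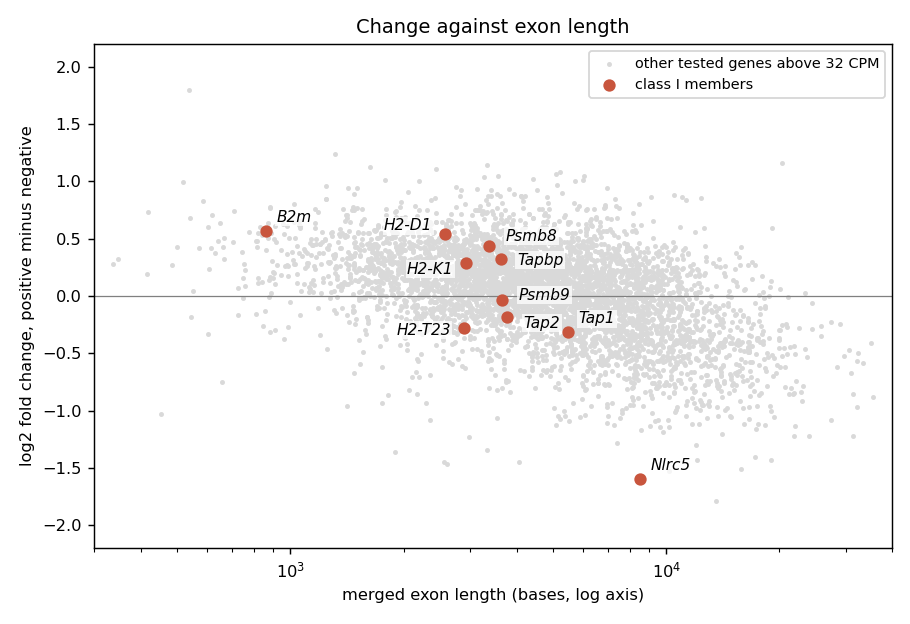
Log2 fold change (plasma-positive minus plasma-negative, linear axis) against merged exon length in bases (log axis). Grey points are 4976 other tested genes above 32 CPM, of which 4 lie outside the axes, and red points are the 10 members. Grey points slope downward with length (rho = -0.458), and B2m is the shortest and Nlrc5 the longest member.

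Position and overlap set further limits. Of the 10 genes, 8 lie on chromosome 17 between 33915899 and 36032855, in the mouse MHC. Exons of other genes overlap 29.02% of Tapbp (mostly the antisense gene Gm19412), 18.5% of Tap2, 14.7% of Psmb8, 5.79% of Psmb9 and 3.87% of Tap1, while B2m, H2-D1, H2-K1 and H2-T23 have no overlap. Whether the counting used strand is not given in the sources used here, so values of the overlapped genes are uncertain.

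The rest of the pathway was read from lists of related genes, by counts and medians. Of 9 tested other class I and class I-like genes, 1 was called higher and 0 lower, beside 1.41% of all tested genes. The list's median log2 fold change was 0.56 in the edgeR fit, 0.15 with DESeq2 and with voom, and 0.33 with the length and GC correction. The called gene was Hfe, a class I-like protein of iron control, at 141 ± 10.7 and 219 ± 30.8 CPM (SD, n = 4; log2 fold change 0.64, edgeR adjusted p = 0.0376). No gene of this list was called with library totals only, with the length and GC correction or without any 1 of the 8 libraries. Fcgrt, the neonatal Fc receptor that pairs with B2m and binds IgG and albumin, had a log2 fold change of 0.56 and missed the threshold (edgeR adjusted p = 0.0596). It is outside the naming rule and is given because its values were seen to be close to the threshold.

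Of 19 other loading and trimming genes, 1 was called higher and 0 lower, beside 1.41% of all tested genes, with a median of 0.23 (0.0058 over all tested genes), and of 0.13 with the length and GC correction. The called gene was Ctss, the protease cathepsin S, at 6916 ± 636 and 10399 ± 578 CPM (SD, n = 4; log2 fold change 0.59, edgeR adjusted p = 0.00162). It is better known for class II loading. The chaperone genes of the loading complex were not called: Calr had a log2 fold change of 0.0033 (edgeR adjusted p = 0.99), Canx 0.12 (0.631) and Pdia3 0.23 (0.327). Tapbpl, a peptide editor, had 0.19 (edgeR adjusted p = 0.860), and Erap1, the trimming peptidase, 0.03 (0.968).

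None of the 5 other inducible proteasome genes was called by edgeR, with 4 at an unadjusted p under 0.05 (3 higher, 1 lower) and 2 called by DESeq2, beside 13.8% and 6.49% of all genes. Their median was 0.54, and 0.32 with the length and GC correction. Psmb10, the third inducible catalytic subunit, had 76.2, 56.4, 95.8 and 70.3 CPM in plasma-negative and 116, 111, 122 and 111 CPM in plasma-positive libraries, without overlap (log2 fold change 0.62, edgeR adjusted p = 0.118). Psme1 and Psme2, subunits of the PA28 activator, did not overlap either, with log2 fold changes of 0.60 and 0.54 (edgeR adjusted p = 0.0678 and 0.233). Of 14 constitutive core subunits 13 had estimates above 0, beside 50.4% of all tested genes, and their median was 0.45, or 0.28 with the correction. Again 0 were called by edgeR, 6 had an unadjusted p under 0.05 and 1 was called by DESeq2. Psmb5, Psmb6 and Psmb7 had log2 fold changes of 0.16, 0.58 and 0.50 (edgeR adjusted p = 0.846, 0.102 and 0.359).

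Among 26 tested genes of class I transcription and interferon input, 1 was called higher and 0 lower, beside 1.41% of all tested genes, with a median of 0.11. Rela, a subunit of NF-kappaB, had 157 ± 12.8 and 235 ± 25.05 CPM (SD, n = 4; log2 fold change 0.57, edgeR adjusted p = 0.0423). No gene of this list was called with RLE factors, with library totals only, with the length and GC correction or without any 1 of the 8 libraries. The interferon-induced regulator Irf1 had a log2 fold change of 0.01 (edgeR adjusted p = 0.985). Rfx5, which binds the X box of MHC promoters, had 0.76 (edgeR adjusted p = 0.625). Ciita, the class II transactivator, was at 1.02 CPM in plasma-negative and 0.161 CPM in plasma-positive libraries and was too low to test.

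**Figure D5:**
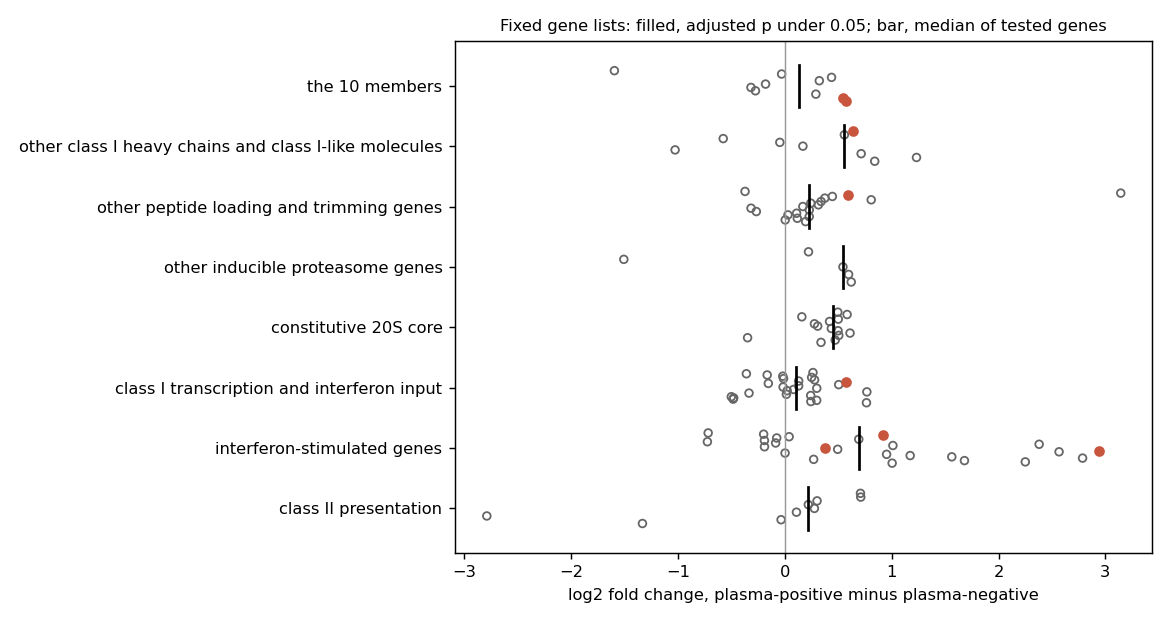
Log2 fold change of every tested gene in the 10 members and 7 related lists, plasma-positive minus plasma-negative. Points are genes, filled where edgeR called them at an adjusted p under 0.05, and bars are medians. All filled points lie to the right of 0, and the members range from Nlrc5 at -1.60 to B2m at 0.57.

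Outside the members, the 5 tested genes whose log2 CPM followed B2m most closely over the 8 libraries were Ms4a6d (Pearson r = 0.976), Man2b1 (0.968), Gm2a (0.968), Psme1 (0.963) and Cd81 (0.959). Man2b1 and Gm2a encode lysosomal proteins, and Cd81 is a tetraspanin. Within the members r with B2m was 0.869 for both H2-D1 and H2-K1, 0.782 for Psmb8, 0.499 for Tapbp, 0.188 for Psmb9, and below 0 for H2-T23, Tap2, Nlrc5 and Tap1. These values describe 8 libraries that differ by group, and they carry no test.

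The labelled cell type was checked against marker lists. All 10 microglial markers were present, at a summed 67573 to 80195 CPM in plasma-negative and 75285 to 81248 CPM in plasma-positive libraries, and 2 of them, Csf1r and Olfml3, were called higher (beside 0.844% of all tested genes). Of 13 T and NK cell markers 9 were at 0 in every library, Cd3e, Cd8a and Ncr1 among them. Summed oligodendrocyte markers were 157 to 230.4 CPM in plasma-negative and 222 to 514 CPM in plasma-positive libraries, and their part in the results was not tested. In bulk samples, fewer cells of a type and less RNA per cell cannot be told apart.

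Markers of blood monocytes and neutrophils summed to 0.291 to 13.8 CPM in plasma-negative and 0 to 478 CPM in plasma-positive libraries, with 5 of 8 detected and Ly6g and Retnlg at 0. The 478 CPM was plasma-positive replicate 3, where S100a8 stood at 300 and S100a9 at 171 CPM. That library also had the lowest plasma-positive B2m and Psmb9 and the highest Tapbp. Without it the log2 fold change of B2m was 0.66 (edgeR adjusted p = 0.00937) and that of H2-D1 0.60 (0.0520). Library totals ranged from 2963094 counts in plasma-negative replicate 4 to 21422738 in plasma-negative replicate 1.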

How the data were processed

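Per the file headers, the authors' count table holds whole reads per gene and library, taken from top-hit alignments. Their RPKM table, as deposited, holds reads relative to exon length in kilobases and to the size of the library. The submitters' processing notes name bcl2fastq, Trim Galore, STAR, HTSeq and mm10. Their settings, the strand and the treatment of multi-mapping reads are not given in the sources used here. Of 35583 identifiers, 35546 matched GENCODE M21 (GRCm38) and 35397 had the same coordinates there, and the coordinates printed are the deposited ones. The 13 mitochondrial genes were listed at 0. A further 16 columns were not used.

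The count test was that of edgeR 4.0.16 under R 4.3.3 (TMM factors, default filter by group, quasi-likelihood F test, Benjamini-Hochberg adjustment over 13277 genes). Genes with an adjusted p under 0.05 were called. Each SE was the size of the log2 fold change over the root of F. The CPM were scaled with TMM factors, and a prior count of 2 was added where logs were taken. For ratios of RPKM an exact permutation test, two-sided, ran through the 70 assignments of libraries. A count of 0 allows up to 3 counts. Such limits cover counting error only, since amplified reads were not marked by molecule. The scripts were tested on simulated data.

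Alternatives were other normalizations and filters, DESeq2 1.42.0, limma 3.58.1 (voom, and log2 RPKM plus 1 or plus 0.1), a correction for exon length and GC content, thinning to 2963094 counts, other thresholds, a replicate block and leaving out single libraries. The labels do not say whether same-numbered libraries are paired, and the main fit has no block. Deviations of same-numbered libraries from their group means correlated at 0.0109 to 0.0315 (mean 0.0167), against a mean of -0.0056 for other pairs. Values this close to 0 cannot decide whether the libraries are paired.

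The members, the gene lists and the motifs were chosen with earlier results of these data known, and the motif letters after the windows had been read. The genes named are all members, 15 pathway genes fixed by name (1 of them is not reported here), up to 4 called genes of each list and the 5 genes closest to B2m. Protein sequences were not used here.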

Additional observations from a re-analysis of the deposited data

Results flagged for a closer look

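H2-D1 in plasma-negative replicate 1 stood apart from its group, at 887 CPM where the other 3 libraries lay between 648 and 679 CPM. The gap was 0.873 of the group's range, above Dixon's 95% critical value for 4 samples. It was 1 of 32 groups of 4 libraries looked at, and chance alone marks about 5% of such groups. Without that library the log2 fold change of H2-D1 was 0.66 (edgeR adjusted p = 0.0185).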

How the results depend on the processing

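B2m and H2-D1 stayed above 0 in all 21 alternatives run for them, and passed the threshold in 16 and 11. Where a value below changed, the cause was not tested unless fewer libraries or a stricter threshold made it. Genes called higher over all tested genes were 112, against 64 with library totals only, 481 with DESeq2, 388 and 370 on log2 RPKM plus 1 and plus 0.1, 44 with the length and GC correction, 221 and 32 at thresholds of 0.1 and 0.01, and 41 to 126 with 1 library left out. Genes called lower were 75, against 163, 484, 59 (plus 1) and 15 in those fits, 117 at a mean count of at least 50, 186 and 14 at those thresholds, and 20 to 77 with 1 library left out. Members called were 2, against 1 with library totals only, 4 with DESeq2, 5 on both RPKM scales, 1 with the length and GC correction, 0 at a threshold of 0.01, and 0 to 1 with 1 library left out. Calls in the 7 related lists together were 6, against 14 with DESeq2, 18 and 14 on the RPKM scales, 2 with the correction, 3 at 0.01 and 3 to 5 with 1 library left out. The log2 fold change of H2-D1 was 0.43 with library totals only and 0.34 with the correction, neither past the threshold. H2-K1 (0.42 on both RPKM scales), Tapbp (0.30 with DESeq2, 0.44 on both RPKM scales) and Psmb8 (0.41 with DESeq2, 0.55 and 0.56 on RPKM) passed it there, but dropped to 0.10, 0.16 and 0.27 with the length and GC correction. Psmb9 turned to 0.037 and 0.034 on the RPKM scales. With 1 library left out, B2m ranged from 0.51 to 0.66, H2-D1 from 0.50 to 0.66, Psmb9 from -0.20 to 0.17 and the log2 difference of H2-D1 to B2m from -0.088 to 0.098. The summed members had a log2 ratio of group means of 0.64 in RPKM and 0.44 in CPM.

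Whether the shared replicate numbers mark pairs is not known, and plasma-negative replicate 1 correlated best with plasma-positive replicate 2 (0.0492). The replicate block left 52 calls in the higher and 22 in the lower direction, and 2 among the members. With block and length and GC correction together these were 5, 4 and 1, with 1 call in the related lists (0 among interferon-stimulated genes) and a log2 fold change of 0.34 for H2-D1. The block alone left 5 calls in the related lists, with 0 among other class I genes (Hfe) and 0 among transcription and interferon input genes (Rela). Nlrc5 had 0 to 175 counts per library.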

Other observations

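Interferon-stimulated genes and class II genes were read from 2 further lists. Of 25 tested interferon-stimulated genes 3 were called higher and 0 lower, with a median log2 fold change of 0.69, beside 1.41% of all tested genes called. Lgals3bp, a secreted galectin-binding glycoprotein, was at 175 ± 26.3 CPM in plasma-negative and 332 ± 15.1 CPM in plasma-positive libraries (SD, n = 4; log2 fold change 0.92, edgeR adjusted p = 0.00571). Ly6e, a membrane protein induced by interferon, was at 1578 ± 31.5 and 2049.6 ± 85.5 CPM (SD, n = 4; 0.38, edgeR adjusted p = 0.00732). Ifitm3, which restricts virus entry, was at 5.37 ± 4.30 and 38.3 ± 13.1 CPM (SD, n = 4; 2.94, edgeR adjusted p = 0.0196). With the length and GC correction 1 gene of this list was called (Lgals3bp, edgeR adjusted p = 0.0398) and the median was 0.52. With 1 library left out 2 to 3 were called. None of the 9 class II genes was called by edgeR, with 4 at an unadjusted p under 0.05 (3 higher, 1 lower) and 1 called lower by DESeq2, beside 13.8% and 6.49% of all genes.

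Marker lists of other cells were summed per library. Plasma-negative and plasma-positive ranges were 28.8 to 56.2 and 36.7 to 74.4 CPM for endothelial cells, 208 to 267 and 180.0 to 238 CPM for border-associated macrophages (mostly Stab1, while Mrc1 was at 0 to 2.36 and 1.42 to 15.3 CPM), 6.06 to 19.0 and 18.8 to 25.02 CPM for dendritic cells, and 0 and 0 to 5.68 CPM for T and NK cells. B cell markers, nearly all of them Cd79b, were at 30.1 to 85.0 and 54.0 to 94.5 CPM. Astrocyte markers, mostly Slc1a3, were at 208 to 322 and 199 to 256 CPM, and the 3 tested ones had a median log2 fold change of 2.29. None of the 3 was called, and Slc1a2 among them was at 0.349 to 7.74 and 1.27 to 67.5 CPM. Pericyte and smooth muscle markers were at 0.336 to 4.78 and 0.330 to 15.9 CPM. Neuron markers were at 2.69 to 29.9 and 2.44 to 238 CPM, with the highest value in plasma-positive replicate 2. Their part in the results was not tested.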
